A study of Mus musculus with 9 samples.

Results

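Cortex of newborn mice that had received ShhN by in utero electroporation (IUE) was compared with cortex of mice labelled as wild-type littermates, in 6 of the 9 RNA libraries of the study. The labels do not say to which mice they were littermates. The 3 ShhN IUE libraries and the 3 wild-type libraries were taken by their labels, from the table that holds both, and all 16180 of its 22496 genes that passed an expression filter were tested. ShhN is the amino-terminal signalling fragment of Sonic hedgehog (SHH). In utero electroporation drives plasmid DNA with electric pulses into the cells that line the ventricle of an embryo, so that a part of the cells of the cortex take it up. Both groups were labelled as dissected cortex at postnatal day 0, on a mixed background of C57BL/6J, 129S6 and CD1. The remaining 3 libraries came from hGFAP-Cre, SmoM2f/+ mice, in which Cre under the human GFAP promoter switches on SmoM2, an activated form of the SHH transducer Smoothened. No group was labelled as electroporated without ShhN, so effects of the electroporation and of ShhN cannot be told apart. The construct, its promoter, the age at electroporation and the side dissected are not given in the sources used here. Nothing in the labels states that libraries of 1 group derive from different animals, and the p-values describe only the spread among these libraries, which may be technical.

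SHH binds the receptor PTCH1, which in its absence holds SMO inactive. Released SMO acts at the primary cilium and turns the GLI transcription factors towards activation. GLI1, PTCH1 and HHIP are themselves induced, and PTCH1 and HHIP bind SHH and limit the signal. In the embryonic forebrain SHH is known for ventral patterning, and later for the division of progenitors and for the supply of oligodendrocytes and olfactory bulb interneurons.

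Library totals ran from 15376071 to 21694348 counts. Levels are given as counts per 1e+06 after TMM scaling (CPM), in the order of libraries 1, 2 and 3 of each group. Fold changes are ShhN IUE over wild type with their SE, from 3 libraries per group, and adjusted p is from edgeR's quasi-likelihood test over all 16180 genes. Genes said to rise or fall passed it at 0.05. A number in parentheses after a gene's name is its log2 fold change, and medians of lists are over the log2 fold changes of the tested members. Cortical pyramidal markers were abundant in all 6 libraries: Neurod6, a transcription factor of pyramidal neurons, had 687, 658 and 491 CPM in ShhN IUE and 536, 478 and 525 CPM in wild type. The choroid plexus genes Ttr, Folr1 and Kl and the thalamus genes Gbx2 and Lhx9 were too low to be tested. Of the wider lists of these tissues, 7 of 15 choroid plexus and 11 of 14 thalamus members were tested. The thalamus list summed to 155.1, 143.1 and 196.5 CPM in ShhN IUE and 213.2, 193.7 and 178.5 CPM in wild type.

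The libraries differed in 2 ways that their labels do not give. Genes of the meninges, the membranes over the cortex, summed to 341, 384 and 1510 CPM in ShhN IUE and to 363, 1548 and 715 CPM in wild type, and Dcn, a fibroblast proteoglycan, had 0.305, 0.415 and 43.9 CPM in ShhN IUE and 0.363, 40.3 and 15.5 CPM in wild type. ShhN IUE library 3 and wild-type library 2 were thus the highest of their groups. Xist, the RNA made from the inactive X chromosome, had 1.98, 3366 and 2.07 CPM in ShhN IUE and 1.82, 0.4998 and 2.03 CPM in wild type. The Y-linked Eif2s3y had 78.4, 0.356 and 83.8 CPM in ShhN IUE and 94.03, 99.7 and 0.2197 CPM in wild type, so ShhN IUE library 2 and wild-type library 3 were near 0, the latter without high Xist. Xist passed the test on 1 library alone (adjusted p = 0.0372), and without ShhN IUE library 2 it did not (adjusted p = 0.535). Counts were therefore repeated without the pair of libraries highest in meningeal genes, and without the pair near 0 for Eif2s3y. Both alternatives were chosen after the data were examined. Wild-type library 3, at 715 CPM of meningeal genes and 15.5 CPM of Dcn, stayed in when the pair highest in meningeal genes was left out. The wild-type libraries were counted again in the table that holds SmoM2. The log2 ratio of summed wild-type counts between the tables was beyond 0.5 in either direction for Ccnd3, Cdk6, Cdkn1b, Dcx, Gabra5, Gapdh, Grm5, Hmgb1, Mef2c, P2ry12, Pde10a, Penk and Snap25 among the genes given below, so their fold changes depend on how reads were counted.

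**Figure D1:**
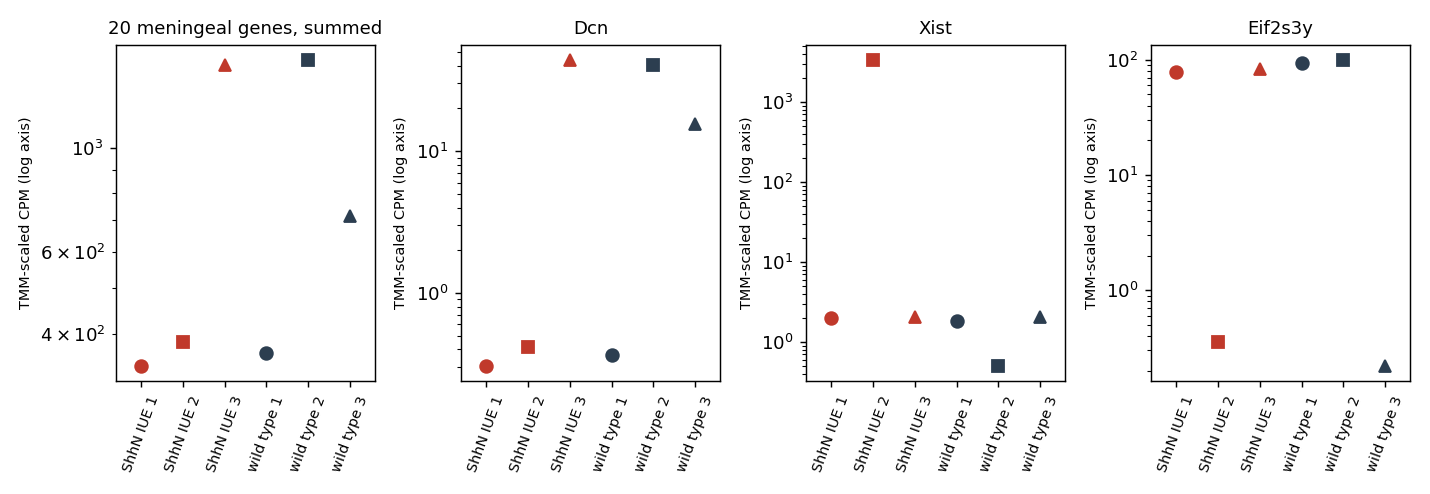
Summed CPM of the 20 genes of the meningeal list, and CPM of Dcn, Xist and Eif2s3y, in each of the 6 libraries (log axes, 1 point per library, ShhN IUE in red, wild type in dark blue). ShhN IUE 3 and wild type 2 are high in meningeal genes, and Xist is high in ShhN IUE 2.

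In all, 2602 genes rose (16.1%) and 2778 fell (17.2%), and the median log2 fold change over all 16180 genes was -0.004. Of the 5380 genes that changed, 5342 (99.3%) had no overlap between the groups. These genes were picked by a test of the same libraries, so this share is largely set by the selection. The share over all genes tested was not counted. Changes of at least 2-fold numbered 969 rises and 908 falls, and those of at least 8-fold 24 rises and 76 falls. Among the genes that rose, ShhN IUE library 3 had the highest value in 53.3%, library 2 in 24.9% and library 1 in 21.8%. Among those that fell, library 3 had the lowest value in 51.1%. Without ShhN IUE library 1, 1567 genes rose and 1684 fell. Without the pair highest in meningeal genes, 1548 rose and 1710 fell, and without the pair near 0 for Eif2s3y, 1545 rose and 1627 fell.

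**Figure D2:**
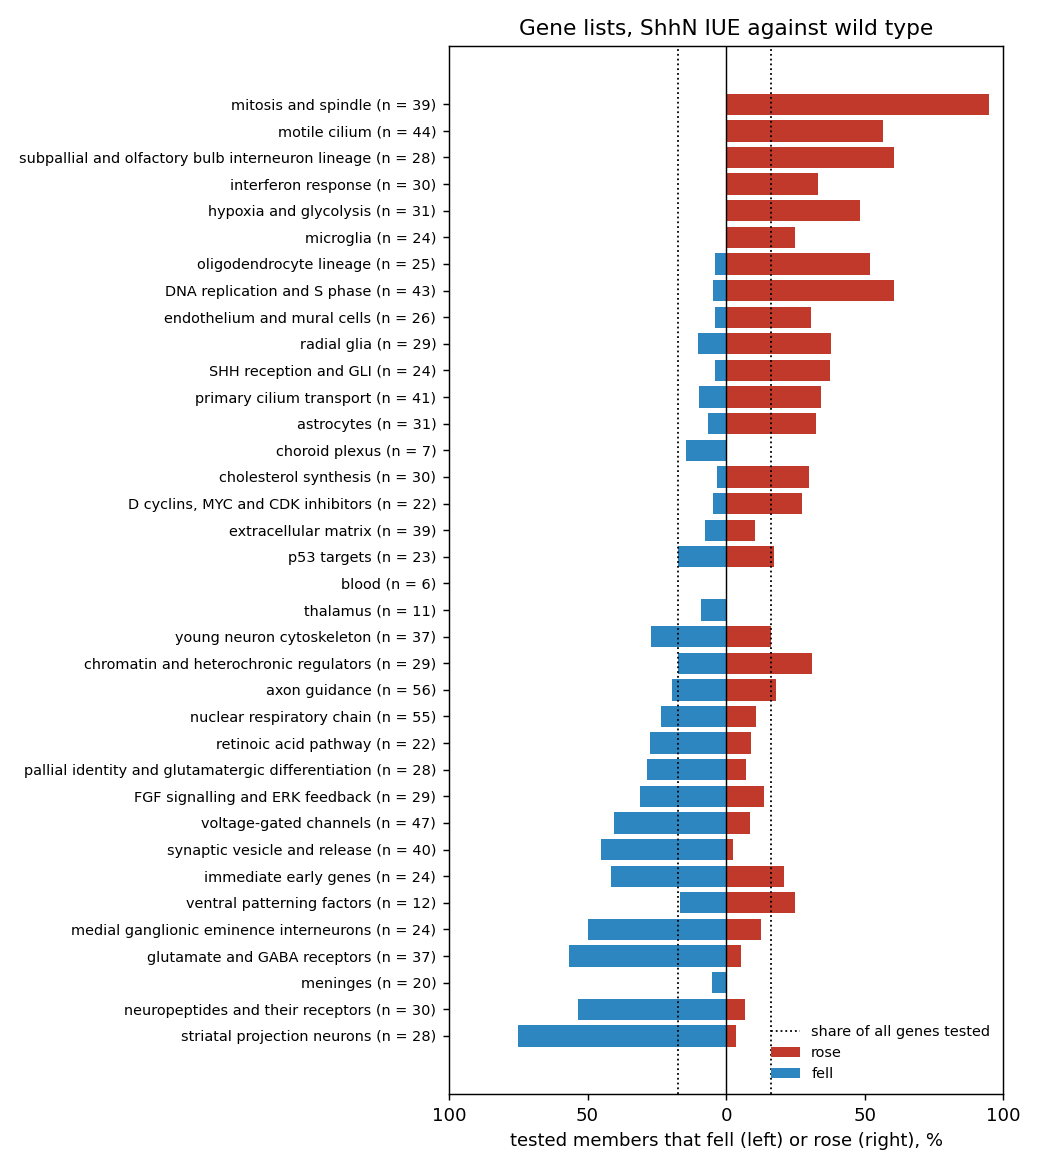
Share of the tested members of each gene list that rose (red, right) or fell (blue, left) in ShhN IUE, ordered by the median log2 fold change of the list. Dotted lines mark the shares over all genes tested, 16.1% for rises and 17.2% for falls. Mitosis genes stand at one end and striatal genes at the other.

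Genes of SHH reception and of the GLI factors were higher in ShhN IUE for the induced feedback genes and for Gli2, while the co-receptors differed little: of this list, 9 of 24 tested rose, 1 fell and 14 did not pass (median log2 fold change 0.39). Shh itself had 2.59, 3.09 and 28.5 CPM in ShhN IUE and 1.87, 2.82 and 1.703 CPM in wild type (log2 fold change 2.405 ± 0.89, adjusted p = 0.0693). Library 3 alone was high. ShhN IUE library 1 lay within the wild-type range, and library 2 lay slightly above it. Without library 3 the log2 fold change of Shh was 0.42 (adjusted p = 0.387), and without library 1 or 2 it passed (adjusted p = 0.0388 and 0.0410). Counts of Shh may include reads of the introduced fragment, which was not tested.

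Gli1, the GLI factor that the pathway induces, had 26.03, 27.7 and 68.9 CPM in ShhN IUE and 5.65, 9.13 and 7.75 CPM in wild type (log2 fold change 2.44 ± 0.398, adjusted p = 0.00369). Ptch1, the receptor, had 133, 115 and 301 CPM in ShhN IUE and 29.7, 42.4 and 49.99 CPM in wild type (log2 fold change 2.17 ± 0.37, adjusted p = 0.00455). For both, all ShhN IUE libraries lay above all wild-type libraries, and library 3, the one with high Shh, was at least 2 times as high as the other ShhN IUE libraries. Hhip, which binds and sequesters SHH ligand, was also highest in library 3, with 6.1004, 4.93 and 24.8 CPM in ShhN IUE and 1.71, 2.999 and 2.802 CPM in wild type (log2 fold change 2.25 ± 0.62, adjusted p = 0.0259). It did not pass without any 1 of the wild-type libraries, and with ShhN IUE 3 left out the log2 fold change of Hhip was 1.15. ShhN IUE library 3 was also the highest of its group in meningeal genes, whose part in these levels was not tested.

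Gli2, the main activating GLI factor, was more even, with 20.3, 25.2 and 28.2 CPM in ShhN IUE and 6.59, 7.77 and 6.04 CPM in wild type (log2 fold change 1.85 ± 0.18, adjusted p = 0.000842). Smo, the transducer, had 35.4, 41.5 and 49.3 CPM in ShhN IUE and 20.8, 26.4 and 19.6 CPM in wild type (log2 fold change 0.92 ± 0.17, adjusted p = 0.00558). Neither group overlapped with the other for these genes, and library 3 was only slightly above the rest. Gli3, which acts mostly as a repressor, had 22.2, 24.6 and 20.7 CPM in ShhN IUE and 23.03, 18.99 and 17.6 CPM in wild type (log2 fold change 0.18 ± 0.15, adjusted p = 0.382). The co-receptors Boc (0.298), Cdon (-0.03) and Gas1 (-0.15) did not pass. The other members that rose were Evc (1.197), a regulator of SMO at the ciliary base, Kif7 (0.74), a ciliary kinesin that organizes GLI, Gpr161 (0.63), a ciliary receptor that restrains the pathway, and Sufu (0.49), which binds GLI proteins. The kinase gene Csnk1a1 (-0.68) fell. With the pair highest in meningeal genes left out, 6 of 24 members rose.

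**Figure D3:**
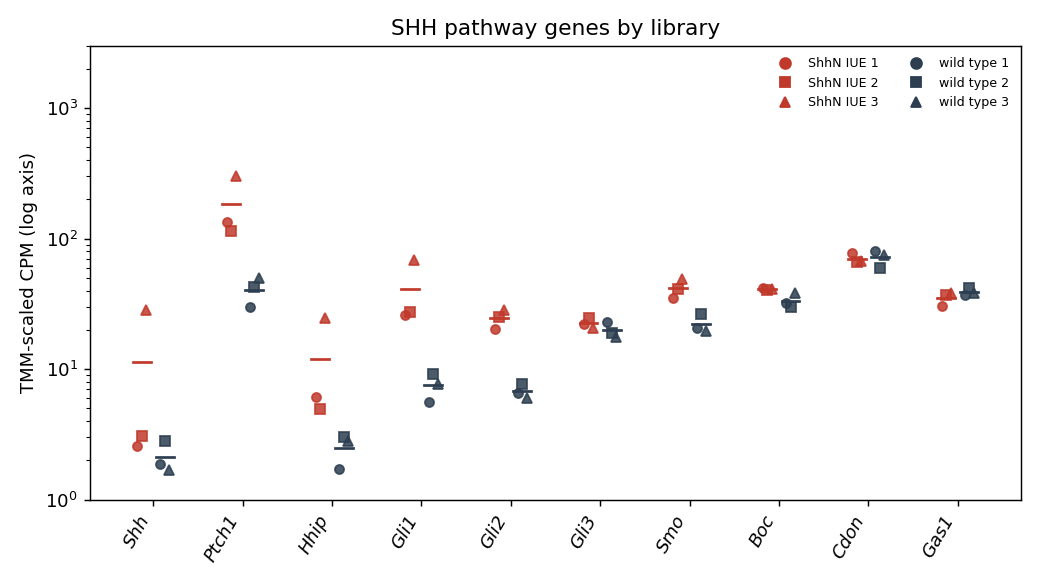
CPM of 10 SHH pathway genes in each library (log axis), with the libraries as symbols and the group mean as a bar, ShhN IUE in red and wild type in dark blue. Shh, Ptch1, Hhip and Gli1 are highest in ShhN IUE 3, while Gli2 and Smo are raised evenly and Gli3, Boc, Cdon and Gas1 overlap or nearly so.

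Genes of cell division rose together. Of the mitosis and spindle list, 37 of 39 tested rose, 0 fell and 2 did not pass (median log2 fold change 1.39). Kif18b, a kinesin that controls the length of spindle microtubules, had 15.3, 16.8 and 20.04 CPM in ShhN IUE and 3.73, 4.13 and 4.45 CPM in wild type (log2 fold change 2.08 ± 0.19, adjusted p = 0.000672). Ube2c, the ubiquitin-conjugating enzyme of the anaphase-promoting complex, had 24.2, 22.8 and 31.6 CPM in ShhN IUE and 6.38, 6.22 and 7.47 CPM in wild type (log2 fold change 1.97 ± 0.18, adjusted p = 0.000702). In both the 3 ShhN IUE libraries lay close together, at more than 3 times the highest wild-type library. Bub1b, a spindle checkpoint kinase, had 26.1, 25.5 and 33.2 CPM in ShhN IUE and 5.39, 6.63 and 8.405 CPM in wild type (log2 fold change 2.05 ± 0.204, adjusted p = 0.000842), and Top2a, the topoisomerase that separates sister chromatids, had 126, 126 and 140.1 CPM in ShhN IUE and 29.3, 43.2 and 46.3 CPM in wild type (log2 fold change 1.72 ± 0.17, adjusted p = 0.000848). The proliferation antigen Mki67 had 141, 153 and 175 CPM in ShhN IUE and 42.7, 43.1 and 54.5 CPM in wild type (log2 fold change 1.74 ± 0.14, adjusted p = 0.000517). Spc25 (0.52) and Mad2l1 (0.297) were the 2 members that did not pass.

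Of the DNA replication list, 26 of 43 tested rose, 2 fell and 15 did not pass (median 0.67). Uhrf1, which brings the maintenance methyltransferase to replicated DNA, had 39.2, 46.3 and 46.1 CPM in ShhN IUE and 13.1, 11.8 and 11.98 CPM in wild type (log2 fold change 1.84 ± 0.13, adjusted p = 0.000401). Pold1, the catalytic subunit of a replicative polymerase, had 30.9, 31.1 and 37.2 CPM in ShhN IUE and 13.02, 9.91 and 12.2 CPM in wild type (log2 fold change 1.498 ± 0.15, adjusted p = 0.000866), Lig1, which joins Okazaki fragments, had a log2 fold change of 1.06, and Pola2, a subunit of the primase complex, one of 1.23. The helicase subunits Mcm2 (1.04), Mcm3 (1.23), Mcm5 (1.17), Mcm6 (0.66) and Mcm7 (0.67) rose, and Mcm4 (0.24) did not pass. Not every replication gene was higher: Pcna (0.12), Gins2 (0.02), Chaf1b (0.04) and Prim1 (0.13) did not pass, and Ccne2 (-0.99), a G1 cyclin, and Orc6 (-0.51), an origin factor, fell. Without the pair highest in meningeal genes 33 mitosis and 19 replication members rose, and without the pair near 0 for Eif2s3y 35 and 18 did.

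Promoters of these genes are shown because most members of the mitosis list moved together. The windows run from 200 bases before to 30 bases after the gene's start, on the gene's strand, from RefSeq on GRCm38.p6, with matches in capitals. The window of Kif18b lies at chr11:102925095-102925324 (minus strand), Ube2c at chr2:164769729-164769958 (plus strand) and Top2a at chr11:99024160-99024389 (minus strand), where capitals mark TTTGAA on either strand, the core of the element known as CHR in cell cycle promoters. That of Uhrf1 lies at chr17:56304113-56304342 (plus strand) and Mcm6 at chr1:128359676-128359905 (minus strand), where capitals mark the E2F motifs TTTCCCGC, TTTCGCGC, TTTGCCGC and TTTGGCGC on either strand, which overlap in 1 place in Mcm6. Uhrf1 has another start in the table, whose window holds no match.
Kif18b: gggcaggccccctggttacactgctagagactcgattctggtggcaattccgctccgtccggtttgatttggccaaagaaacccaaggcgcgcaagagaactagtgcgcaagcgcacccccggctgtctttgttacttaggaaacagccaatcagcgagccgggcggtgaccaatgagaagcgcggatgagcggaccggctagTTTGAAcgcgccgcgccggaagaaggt
Ube2c: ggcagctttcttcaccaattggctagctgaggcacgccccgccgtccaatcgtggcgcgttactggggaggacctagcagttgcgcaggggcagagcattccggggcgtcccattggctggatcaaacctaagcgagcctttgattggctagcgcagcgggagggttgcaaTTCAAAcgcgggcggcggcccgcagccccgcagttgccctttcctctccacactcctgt
Top2a: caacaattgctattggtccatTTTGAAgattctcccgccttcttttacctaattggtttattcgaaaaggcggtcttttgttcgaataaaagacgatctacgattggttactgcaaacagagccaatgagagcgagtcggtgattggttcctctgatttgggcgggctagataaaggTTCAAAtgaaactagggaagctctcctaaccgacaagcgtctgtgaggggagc
Uhrf1: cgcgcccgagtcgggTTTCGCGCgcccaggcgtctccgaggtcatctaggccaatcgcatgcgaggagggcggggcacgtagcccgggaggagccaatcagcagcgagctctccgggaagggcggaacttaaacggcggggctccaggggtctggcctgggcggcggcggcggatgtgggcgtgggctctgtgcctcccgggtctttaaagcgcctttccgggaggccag
Mcm6: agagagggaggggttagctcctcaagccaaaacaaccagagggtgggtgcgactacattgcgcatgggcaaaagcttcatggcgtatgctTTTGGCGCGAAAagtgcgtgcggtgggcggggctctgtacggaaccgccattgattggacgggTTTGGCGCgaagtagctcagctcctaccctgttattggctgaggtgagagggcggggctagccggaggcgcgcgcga

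Over windows of 300 bases, from 250 before to 50 after the start, 11355 of 16162 tested gene names had a RefSeq promoter. TTTGAA was in 25 of 32 mitosis members with a promoter (78.1%), against 14.0% of the tested genes and 20.2% of all 27025 genes in the table. An E2F motif was in 17 of 35 replication members (48.6%), against 4.42% of tested genes and 2.6% of all. Mcm6, shown above, is not among the named genes. It held 3 E2F matches, while Pold1 held 1 and Pola2 held 0. CCAAT on either strand was in 23 of 32 mitosis members (71.9%), 21 of 35 replication members and 42.5% of tested genes. Both lists include members that did not rise. Among all rising genes with a promoter, TTTGAA was in 15.6%, an E2F motif in 5.63% and CCAAT in 49.6%, much nearer to the shares of tested genes. The GLI consensus GACCACCCA on either strand was in 28 of 11355 tested genes (0.247%) and in 0.289% of all. It was in 3 of the 1883 rising genes with a promoter (0.159%), namely Espl1, 2610306M01Rik and Ssrp1. Of the 24 tested members of the SHH list, 20 had a promoter, and 0 of these held it. Gli1 had no promoter entry and was not searched. These shares describe letters in a short window and were not tested.

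Of the D cyclins, MYC factors and CDK inhibitors, 6 of 22 tested rose, 1 fell and 15 did not pass. Ccnd2, the D-type cyclin of cortical progenitors, had 475, 444 and 557 CPM in ShhN IUE and 137, 171 and 162 CPM in wild type (log2 fold change 1.65 ± 0.13, adjusted p = 0.000517), and Ccnd3 (1.33), Cdk4 (0.66), Cdk6 (1.304), Cdkn2c (0.76) and Rbl1 (0.59) also rose. Of these 6 rises only 2, Ccnd2 and Rbl1, had wild-type counts that agreed between the tables within 0.1 on the log2 scale. Rbl1, a retinoblastoma relative, kept its direction and lost its call without any library except wild-type 1. Ccnd1 (0.41) did not pass, nor did Mycn, with 55.2, 122 and 48.4 CPM in ShhN IUE and 134, 114 and 100.3 CPM in wild type (log2 fold change -0.63 ± 0.32, adjusted p = 0.168). ShhN IUE library 2 was within the wild-type range for Mycn and the other 2 were below it, and without library 2 it passed at a log2 fold change of -1.15. The CDK inhibitors Cdkn1a (0.13), Cdkn1b (-0.29) and Cdkn1c (0.21) did not pass. Id2, an inhibitor of differentiation factors, fell (log2 fold change -0.62 ± 0.204, adjusted p = 0.0474), a call lost without any library except wild-type 3, and its log2 fold change was -0.35 without wild-type library 1.

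Transcription factors of the lateral ganglionic eminence and of olfactory bulb interneurons were higher: of the subpallial list, 17 of 28 tested rose, 0 fell and 11 did not pass (median 0.85). Sp8, a zinc finger factor of olfactory bulb interneurons, had 94.9, 78.99 and 126 CPM in ShhN IUE and 10.6, 13.9 and 14.1 CPM in wild type (log2 fold change 2.95 ± 0.21, adjusted p = 0.000401). Gsx2, a homeobox factor of the lateral eminence, had 9.35, 8.84 and 10.3 CPM in ShhN IUE and 1.24, 1.86 and 2.197 CPM in wild type (log2 fold change 2.42 ± 0.26, adjusted p = 0.0009903), and Dlx2, which acts downstream of it, had 135, 139.9 and 181 CPM in ShhN IUE and 51.97, 48.03 and 57.9 CPM in wild type (log2 fold change 1.53 ± 0.14, adjusted p = 0.000714). The ShhN IUE libraries were close to each other and far above wild type for all 3 genes. Cdca7, a chromatin factor of dividing cells, had 81.8, 75.6 and 98.9 CPM in ShhN IUE and 15.04, 16.2 and 21.8 CPM in wild type (log2 fold change 2.27 ± 0.18, adjusted p = 0.000517), and Dlx1 had 389, 312 and 506 CPM in ShhN IUE and 120.01, 131 and 129 CPM in wild type (log2 fold change 1.66 ± 0.17, adjusted p = 0.000848).

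Gad1, which makes GABA, rose (1.04), while Gad2 (0.25), the vesicular GABA transporter Slc32a1 (-0.17) and the olfactory bulb markers Th (0.62) and Calb2 (0.11) did not pass. Vax1 (1.23), Sall3 (1.304), Sp9 (1.14) and Prox1 (0.95) rose. Dlx6os1 (2.32) overlaps the Dlx5 and Dlx6 locus on the opposite strand. Whether the authors counted by strand is not given, so its reads cannot be separated from those of its neighbours. Without wild-type library 3, 10 members rose, and without the pairs highest in meningeal genes and near 0 for Eif2s3y, 12 and 13 members rose.

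Ventral patterning factors of the neural tube were often too low to be tested. Of that list, 3 of 12 tested rose, 2 fell and 7 did not pass. The shares were 25.0% for rises and 16.7% for falls, against 16.1% and 17.2% over all genes tested. The other 9 of its 21 members were too low to be tested or not in the table. Among them were the floor plate factors Foxa1 and Foxa2 and the spinal factor Nkx6-1. Nkx2-2, a factor of ventral progenitors and oligodendrocyte precursors, had 8.13, 3.92 and 15.9 CPM in ShhN IUE and 1.87, 2.68 and 2.14 CPM in wild type (log2 fold change 2.06 ± 0.48, adjusted p = 0.0137), a call lost without wild-type library 3. Olig2, a factor of oligodendrocyte and ventral progenitors, had 59.5, 60.9 and 82.4 CPM in ShhN IUE and 30.2, 38.7 and 41.5 CPM in wild type (log2 fold change 0.88 ± 0.18, adjusted p = 0.00786), and Olig1 had 117, 129 and 129 CPM in ShhN IUE and 93.98, 82.3 and 73.99 CPM in wild type (log2 fold change 0.58 ± 0.11, adjusted p = 0.00757). Nkx2-1, which specifies the medial ganglionic eminence, did not pass (-0.49), while its targets Lhx6 (-0.84) and Lhx8 fell. Lhx8 had 0.102, 0 and 0 CPM in ShhN IUE and 1.4003, 1.23 and 1.76 CPM in wild type (adjusted p = 0.00208).

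Among pallial and glutamatergic genes, 2 of 28 tested rose, 8 fell and 18 did not pass (median -0.23). The 2 that rose act in dorsal progenitors. Pax6 had 61.8, 74.7 and 62.99 CPM in ShhN IUE and 17.1, 14.04 and 17.7 CPM in wild type (log2 fold change 2.03 ± 0.14, adjusted p = 0.000401), and Neurog2, a proneural factor, had 14.7, 19.6 and 10.3 CPM in ShhN IUE and 5.498, 7.59 and 6.37 CPM in wild type (log2 fold change 1.195 ± 0.26, adjusted p = 0.0113), which did not pass without the pair near 0 for Eif2s3y. Eomes, the factor of intermediate progenitors, had 14.7, 33.4 and 9.83 CPM in ShhN IUE and 14.3, 8.997 and 10.99 CPM in wild type (log2 fold change 0.76 ± 0.42, adjusted p = 0.192). Only ShhN IUE library 2 was high in Eomes, and without it the log2 fold change was 0.12.

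Genes of deep-layer and glutamatergic neurons were among the 8 that fell. Tle4, a corepressor of corticothalamic neurons, had 75.2, 79.7 and 67.8 CPM in ShhN IUE and 202, 144 and 170.1 CPM in wild type (log2 fold change -1.21 ± 0.14, adjusted p = 0.00107), and Tbr1, a deep-layer factor, had 245, 231 and 156 CPM in ShhN IUE and 413, 314 and 386 CPM in wild type (log2 fold change -0.81 ± 0.18, adjusted p = 0.0114), with ShhN IUE library 3 lowest. The vesicular glutamate transporters Slc17a6 (-0.78) and Slc17a7 (-0.97) fell, as did Bcl11b (-0.98), Mef2c (-1.07), Sox5 (-0.61) and Ldb2 (-0.54). Slc17a7 had 906, 821 and 964 counts in ShhN IUE and 2384, 2821 and 952 counts in wild type. Wild-type library 3 thus lay in the ShhN IUE range for Slc17a7. Mef2c is also in the medial ganglionic eminence list given below. Whether dissection had a part in these falls was not tested. The dorsal identity factors Emx1 (-0.14), Emx2 (-0.09) and Lhx2 (0.21) did not pass.

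Of radial glia genes, 11 of 29 tested rose, 3 fell and 15 did not pass (median 0.39). Nes, an intermediate filament of progenitors, had 194, 249.3 and 199 CPM in ShhN IUE and 64.7, 65.1 and 79.3 CPM in wild type (log2 fold change 1.62 ± 0.14, adjusted p = 0.000528), above wild type by more than 2 times in every library. Prom1 (CD133) had 26.8, 29.2 and 30.8 CPM in ShhN IUE and 15.8, 20.9 and 17.9 CPM in wild type (log2 fold change 0.67 ± 0.14, adjusted p = 0.00999) and Sox1 had 88.3, 81.01 and 138 CPM in ShhN IUE and 55.1, 49.7 and 59.4 CPM in wild type (log2 fold change 0.904 ± 0.202, adjusted p = 0.0118). Hes5, a Notch target, rose (1.201), as did the filament gene Vim (1.16) and the glial glutamate transporter Slc1a3 (0.82), and Hes1 (-0.15), Fabp7 (0.13), Ptprz1 (0.02) and Tnc (0.00) did not pass. The members that fell were Dach1 (-1.57), with no overlap between the groups, Cdh4 (-0.85) and Ddah1 (-0.34). Without the pair near 0 for Eif2s3y 6 members rose, and the call of Prom1 was lost.

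Of the oligodendrocyte lineage, 13 of 25 tested rose, 1 fell and 11 did not pass (median 0.69). Gpr17, a receptor of cells that leave the precursor state, had 115, 86.2 and 139.7 CPM in ShhN IUE and 28.2, 35.7 and 38.6 CPM in wild type (log2 fold change 1.73 ± 0.198, adjusted p = 0.00106). Cspg4 (NG2), of precursors and pericytes, had 50.8, 38.9 and 51.8 CPM in ShhN IUE and 27.2, 29.1 and 28.2 CPM in wild type (log2 fold change 0.74 ± 0.14, adjusted p = 0.00564). For both genes every ShhN IUE library lay above every wild-type library. The lineage factor Sox10 (1.09) and the genes Bcas1 (2.05), Cnp (1.25) and Mbp (0.66) of cells about to myelinate rose. Pdgfra, the growth factor receptor of precursors, had 121, 119 and 134 CPM in ShhN IUE and 86.97, 116 and 89.9 CPM in wild type (log2 fold change 0.35 ± 0.13, adjusted p = 0.0689), with wild-type library 2 close to the ShhN IUE values. It passed without that library. Egfr had 47.5, 48.6 and 62.8 CPM in ShhN IUE and 33.6, 41.8 and 44.4 CPM in wild type (log2 fold change 0.41 ± 0.16, adjusted p = 0.08105). Lhfpl3, also a precursor gene, fell (-0.99).

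Of astrocyte genes, 10 of 31 tested rose, 2 fell and 19 did not pass, and 5 or 6 rose without wild-type library 3, without wild-type library 1 or without ShhN IUE library 3. Aldoc, an aldolase of astrocytes, had 156, 151 and 159 CPM in ShhN IUE and 73.96, 94.2 and 76.03 CPM in wild type (log2 fold change 0.93 ± 0.12, adjusted p = 0.00143), and Mlc1, a membrane protein of their end-feet, had 46.6, 57.5 and 58.5 CPM in ShhN IUE and 21.5, 32.1 and 23.3 CPM in wild type (log2 fold change 1.08 ± 0.18, adjusted p = 0.00375). Gfap (1.14), Sox9 (0.92) and Aldh1l1 (0.65) rose, while the water channel gene Aqp4 (-0.71) and the connexin gene Gja1 (-0.61) did not pass. Slc1a2, the main glutamate transporter of mature astrocytes, and Acsl6 fell (-0.92 and -0.43). Itih3 had 9.56, 7.95 and 36.1 CPM in ShhN IUE and 2.13, 1.64 and 3.19 CPM in wild type (log2 fold change 2.95 ± 0.61, adjusted p = 0.00905), with library 3 at more than 3 times the other ShhN IUE libraries, and its log2 fold change was 1.93 without it.

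Striatal projection neuron genes were the list with the largest share of falls, 75.0%: 1 of 28 tested rose, 21 fell and 6 did not pass (median -1.56). Tac1, the precursor of substance P, had 0.254, 0.297 and 0.564 CPM in ShhN IUE and 11.98, 9.72 and 10.8 CPM in wild type (log2 fold change -4.86 ± 0.33, adjusted p = 0.000401). Zfp503, a zinc finger factor of the striatum, had 1.27, 1.36 and 1.503 CPM in ShhN IUE and 10.1, 8.13 and 11.9 CPM in wild type (log2 fold change -2.86 ± 0.25, adjusted p = 0.000571), and Rxrg, a retinoid receptor, had 3.41, 3.38 and 7.39 CPM in ShhN IUE and 37.1, 18.9 and 34.003 CPM in wild type (log2 fold change -2.67 ± 0.38, adjusted p = 0.00206). All 3 ShhN IUE libraries were at least 2 times below the lowest wild-type library for these genes. The dopamine receptor genes Drd1 (-1.55) and Drd2 (-3.65), the adenosine receptor Adora2a (-1.57) and the factors Ebf1 (-3.97), Isl1 (-3.57), Six3 (-3.99) and Ikzf1 (-3.77) fell. Pde10a (-0.06), Foxp1 (0.398), Adcy5 (-0.07), Rgs9 (-0.33), Rasd2 (-0.605) and Pde1b (0.17) did not pass, and Sp9 rose. Striatal neurons can enter a cortical dissection, and in bulk tissue fewer cells of a type and less RNA per cell cannot be told apart. The part of dissection in these falls was not tested. Without the pair highest in meningeal genes 20 members fell, and without the pair near 0 for Eif2s3y 18 did.

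Medial ganglionic eminence interneurons migrate into the cortex before birth, and 3 of 24 tested rose, 12 fell and 9 did not pass of their list (median -0.51). Maf, a factor of these cells, had 32.6, 28.7 and 32.1 CPM in ShhN IUE and 67.8, 87.8 and 82.6 CPM in wild type (log2 fold change -1.35 ± 0.13, adjusted p = 0.000842). Nxph1, a neurexin ligand of interneurons, had 20.4, 22.5 and 15.7 CPM in ShhN IUE and 54.2, 56.7 and 46.4 CPM in wild type (log2 fold change -1.42 ± 0.16, adjusted p = 0.00101), and Sst, the peptide somatostatin, had 18.8, 12.997 and 15.7 CPM in ShhN IUE and 60.5, 59.6 and 35.3 CPM in wild type (log2 fold change -1.71 ± 0.23, adjusted p = 0.00186). The groups did not overlap for any of these genes. Erbb4, Calb1 and Kcnc2 fell (-0.84, -2.68 and -0.71), and Npy (-0.01) and Satb1 (0.01) did not pass. The members that rose included Sox6 (0.59) and Cxcr4 (0.67), which are also expressed in progenitors or young migrating neurons.

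Of neuropeptides and their receptors, 2 of 30 tested rose, 16 fell and 12 did not pass (median -1.16). Among the falls, Tac1, Penk, Pdyn and Oprm1 are also in the striatal list, and the limits given there on dissection hold for them too. Tac1, Sst and Nxph1 are also in the medial ganglionic eminence list. Cck, cholecystokinin, had 15.7, 12.3 and 11.3 CPM in ShhN IUE and 36.8, 27.9 and 26.3 CPM in wild type (log2 fold change -1.21 ± 0.19, adjusted p = 0.00298). The opioid precursors Penk (-1.82) and Pdyn (-2.42), their receptors Oprm1 (-1.38) and Oprk1 (-2.36) and the peptide gene Vip (-3.401) fell, the last from 0.622 to 1.73 CPM in wild type to at most 0.178 CPM. Counts were also small for Oprm1, at 16, 10 and 5 in ShhN IUE and 32, 28 and 30 in wild type. Oprk1 had 5, 4 and 8 counts in ShhN IUE and 33, 35 and 33 in wild type. The substance P receptor Tacr1 (-1.82) and the cholecystokinin receptor Cckbr (-2.54) fell with their ligands. Cckbr had only 10, 4 and 5 counts in ShhN IUE and 47, 65 and 17 in wild type. Pnoc (0.99), the nociceptin precursor, and the somatostatin receptor Sstr1 (0.59) rose, and without wild-type library 3 only 1 of the 2 did.

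Genes of neuronal signalling held many falls. Of glutamate and GABA receptors, 2 of 37 tested rose, 21 fell and 14 did not pass (median -0.52). Gria1, an AMPA receptor subunit, had 112, 98.9 and 98.3 CPM in ShhN IUE and 190.2, 201 and 161 CPM in wild type (log2 fold change -0.84 ± 0.11, adjusted p = 0.00185), and Gabrg3, a GABA-A subunit, had 12.8, 8.72 and 11.6 CPM in ShhN IUE and 32.3, 26.5 and 23.4 CPM in wild type (log2 fold change -1.31 ± 0.19, adjusted p = 0.00239). The groups were fully apart for both. Gabra5 (-1.44), a subunit of extrasynaptic receptors, and Grm5 (-1.13) fell further than most. The subunits Gria2 (-0.08) and Grin2b (-0.06) did not pass. Grm2, a presynaptic receptor, rose with 114, 103 and 78.3 CPM in ShhN IUE and 48.5, 32.6 and 41.8 CPM in wild type (log2 fold change 1.27 ± 0.19, adjusted p = 0.002597), as did Grik3 (0.27), and leaving out any 1 library except ShhN IUE library 2 left 1 rise. Without the pair highest in meningeal genes, 12 fell.

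Of voltage-gated channels, 4 of 47 tested rose, 19 fell and 24 did not pass (median -0.32), and 12 fell without the pair highest in meningeal genes. Kcna1, a potassium channel of axons, had 1.73, 1.36 and 1.57 CPM in ShhN IUE and 8.92, 6.86 and 5.71 CPM in wild type (log2 fold change -2.199 ± 0.27, adjusted p = 0.00134), and Cacna2d3, an auxiliary calcium channel subunit, had 18.5, 21.8 and 20.9 CPM in ShhN IUE and 54.1, 40.6 and 50.5 CPM in wild type (log2 fold change -1.25 ± 0.14, adjusted p = 0.00108). No ShhN IUE library reached the wild-type range for either gene. Kcnq3 fell by less (log2 fold change -0.66 ± 0.09, adjusted p = 0.00204). Of the pacemaker channel genes, Hcn2 (-0.59) was lower and Hcn3 (0.798) higher. The other rises were Cacna1g (0.52), Cacna1i (0.57) and Cacnb3 (0.44), and without ShhN IUE library 1 the rises numbered 2.

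Of genes of synaptic vesicles and release, 1 of 40 tested rose, 18 fell and 21 did not pass (median -0.34). Cplx2, a complexin, had 413, 363 and 336 CPM in ShhN IUE and 682, 609.5 and 644 CPM in wild type (log2 fold change -0.7999 ± 0.104, adjusted p = 0.00165). Unc13c had 6.46, 9.73 and 6.64 CPM in ShhN IUE and 14.9, 18.6 and 13.6 CPM in wild type (log2 fold change -1.04 ± 0.22, adjusted p = 0.0102), a call lost without the pair highest in meningeal genes, when 9 members fell. Leaving out wild-type library 1 left 11 falls. The release proteins Snap25 (-0.602), Syt1 (-0.38) and Vamp2 (-0.31) fell, and Bsn (-0.03) and Syp (-0.204) did not pass. Syt4 (0.43), a synaptotagmin of young neurons, was the only rise, and its call was lost with ShhN IUE 1 or 2 or wild type 2 or 3 left out.

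Of cytoskeletal genes of young neurons, 6 of 37 tested rose, 10 fell and 21 did not pass (median -0.03). Rises made up 16.2% of the list and 16.1% of all genes tested, and falls 27% and 17.2%. Tubb2b, a beta-tubulin of migrating neurons and among the most abundant messages here, had 5137, 4822 and 4889 CPM in ShhN IUE and 3111, 2572 and 2770 CPM in wild type (log2 fold change 0.81 ± 0.0997, adjusted p = 0.00139). Basp1, a growth cone protein, had 952, 1047 and 873 CPM in ShhN IUE and 2096, 1711 and 1699 CPM in wild type (log2 fold change -0.94 ± 0.12, adjusted p = 0.00152), Marcks, its relative that binds membranes, had 581, 576 and 682 CPM in ShhN IUE and 1049, 1002 and 1013 CPM in wild type (log2 fold change -0.74 ± 0.097, adjusted p = 0.001699), and Nefl, a neurofilament, had 32.5, 34.96 and 28.7 CPM in ShhN IUE and 89.4, 73.8 and 65.1 CPM in wild type (log2 fold change -1.25 ± 0.15, adjusted p = 0.001297). The groups were apart for all 4 genes. Tubb3 rose (log2 fold change 0.44 ± 0.12, adjusted p = 0.0261) and lost its call with ShhN IUE 1 or 2 or wild type 2 or 3 left out. The tubulin genes are close copies, so how shared reads were assigned affects them. Stmn1 (0.62), Stmn4 (0.75), Dpysl2 (0.38) and Kif5a (0.31) rose, Dcx (-0.37) and Gap43 (-0.57) fell, and without ShhN IUE library 1 the rises numbered 3.

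Of axon guidance genes, 10 of 56 tested rose, 11 fell and 35 did not pass, close to the shares over all genes, and 7 fell without ShhN IUE library 1. Of the plexins, the receptors of semaphorins, Plxna3 (1.05), Plxnc1 (0.75), Plxnb2 with 440.4, 403 and 508 CPM in ShhN IUE and 186, 179 and 202 CPM in wild type (log2 fold change 1.25 ± 0.11, adjusted p = 0.000606) and Plxnb1 with 356, 389 and 350.3 CPM in ShhN IUE and 232, 215 and 213 CPM in wild type (log2 fold change 0.73 ± 0.09, adjusted p = 0.00133) rose. Plxnd1 fell, with 170.05, 126 and 117 CPM in ShhN IUE and 332, 301 and 274 CPM in wild type (log2 fold change -1.13 ± 0.15, adjusted p = 0.00175). Of the semaphorins Sema3f (0.56) and Sema4a (0.496) rose and Sema3c (-1.03), Sema4d (-0.71) and Sema6a (-0.38) fell. Of the ephrin receptors on the list Epha4 (-0.71), Epha5 (-0.68), Epha7 (-0.72), Epha8 (-1.23) and Ephb1 (-0.82) fell and none rose. Draxin, a repellent that binds netrin receptors, had 354, 321 and 409 CPM in ShhN IUE and 182, 161 and 127 CPM in wild type (log2 fold change 1.205 ± 0.15, adjusted p = 0.00147). Robo1 (-0.36), Slit1 (0.39) and Dcc (0.295) did not pass.

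Of the retinoic acid pathway, 2 of 22 tested rose, 6 fell and 14 did not pass. The shares were 9.09% for rises and 27.3% for falls, against 16.1% and 17.2% over all genes tested. Among the falls, Rarb and Rxrg are also in the striatal list. Crabp1, a cellular carrier of retinoic acid, had 1.83, 2.85 and 1.94 CPM in ShhN IUE and 9.698, 13.5 and 12.6 CPM in wild type (log2 fold change -2.44 ± 0.26, adjusted p = 0.000918), and the receptor Rarb had 1.07, 1.19 and 3.76 CPM in ShhN IUE and 20.1, 13.6 and 26.8 CPM in wild type (log2 fold change -3.34 ± 0.497, adjusted p = 0.00256). Cyp26b1, which degrades retinoic acid, fell as well (-3.89), as did Rdh10, an early enzyme of its synthesis (log2 fold change -0.85 ± 0.19, adjusted p = 0.0111), whose call was lost without either doubted pair. Meis1 (0.58) was among the 2 rises, of which 0 had wild-type counts that agreed between the tables within 0.1 on the log2 scale. Of FGF signalling genes, 4 of 29 tested rose, 9 fell and 16 did not pass, and 5 fell with ShhN IUE 1 or wild type 1 or 2 left out. Rises made up 13.8% and falls 31.0% of the FGF list. Of the intracellular FGF homologues, which bind sodium channels, Fgf12 had 21.9, 20.7 and 20.5 CPM in ShhN IUE and 48.9, 49.5 and 39.7 CPM in wild type (log2 fold change -1.13 ± 0.13, adjusted p = 0.000997), Fgf13 (-0.99) and Fgf14 (-0.89) fell too, and Fgf11 (0.96) rose. The other falls were the ligand genes Fgf5 (-1.78) and Fgf18 (-1.24) and the ERK feedback genes Spry1 (-0.75), Spred1 (-0.55), Spred3 (-0.64) and Dusp6 (-0.51). The other rises were Fgf15 (2.77), Fgfr2 (0.71) and Fgfbp3 (0.68). Fgf15, secreted by progenitors, was low, with 1.78, 1.07 and 2.82 CPM in ShhN IUE and 0.311, 0.227 and 0.275 CPM in wild type.

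Of extracellular matrix genes, 4 of 39 tested rose, 3 fell and 32 did not pass. The shares, 10.3% for rises and 7.69% for falls, were below the 16.1% and 17.2% over all genes tested. The rises were Fbln2, a basement membrane fibulin, with 67.3, 62.7 and 68.6 CPM in ShhN IUE and 36.05, 33.3 and 24.2 CPM in wild type (log2 fold change 1.09 ± 0.16, adjusted p = 0.00239), Agrn, agrin, with 1308, 1157 and 1365 CPM in ShhN IUE and 906, 802 and 773 CPM in wild type (log2 fold change 0.63 ± 0.11, adjusted p = 0.00412), and the proteoglycans Ncan (0.29) and Vcan (0.303). Ncan lost its call with ShhN IUE 1 or 2 or wild type 2 or 3 left out. The falls were Hapln1 (-1.94), Col25a1 (-3.76) and the cartilage and perineuronal net proteoglycan Acan. The other collagens and the laminins of the list, which the meninges also make, did not pass, and without ShhN IUE library 3 the falls numbered 7.

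Of hypoxia and glycolysis genes, 15 of 31 tested rose, 0 fell and 16 did not pass (median 0.77). Vegfa, the vascular growth factor, had 201, 103 and 291 CPM in ShhN IUE and 75.5, 58.3 and 49.5 CPM in wild type (log2 fold change 1.701 ± 0.34, adjusted p = 0.00794), Adm, adrenomedullin, had 6.41, 4.33 and 11.1 CPM in ShhN IUE and 1.92, 1.36 and 1.32 CPM in wild type (log2 fold change 2.24 ± 0.39, adjusted p = 0.0046004), and Ddit4, an inhibitor of mTOR signalling, had 172, 86.2 and 326 CPM in ShhN IUE and 35.6, 50.5 and 41.3 CPM in wild type (log2 fold change 2.19 ± 0.42, adjusted p = 0.006695). Library 3 was highest and library 2 lowest of ShhN IUE in all 3, and none reached down into the wild-type range. Hexokinase 2 (Hk2 (2.23)), Pfkl (1.32), Tpi1 (1.12), Gapdh (1.04), Eno1 (0.78) and the lactate exporter Slc16a3 (3.02) rose. Slc2a1, the glucose transporter of vessels and of low oxygen, had 92.9, 52.8 and 154 CPM in ShhN IUE and 35.5, 50.8 and 39.1 CPM in wild type (log2 fold change 1.26 ± 0.35, adjusted p = 0.0253). Its call was lost with ShhN IUE 1 or wild type 1 or 3 left out, and with ShhN IUE 3 left out the log2 fold change was 0.81. Ldha (0.799) and Pgk1 (0.57) did not pass. Without the pair highest in meningeal genes 9 members rose, and without the pair near 0 for Eif2s3y 17 did.

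Of nuclear genes of the respiratory chain, 6 of 55 tested rose, 13 fell and 36 did not pass (median -0.17), so 23.6% fell against 17.2% over all genes tested. Ndufc2, of complex I, had 32.5, 30.9 and 27.8 CPM in ShhN IUE and 58.2, 61.6 and 53.01 CPM in wild type (log2 fold change -0.92 ± 0.12, adjusted p = 0.00155), and Uqcrc2, of complex III, had 129, 130.4 and 133 CPM in ShhN IUE and 198, 179.7 and 188 CPM in wild type (log2 fold change -0.53 ± 0.08, adjusted p = 0.00346). Cycs, cytochrome c, fell (-0.77). Cox5b had 50.7, 51.6 and 53.9 CPM in ShhN IUE and 31.8, 28.4 and 26.3 CPM in wild type (log2 fold change 0.85 ± 0.12, adjusted p = 0.00179), and Atp5k rose too (1.67). Genes such as Atp5k have processed copies elsewhere in the genome, so reads may be shared. Only 6 members fell without ShhN IUE library 1, ShhN IUE library 3 or wild-type library 2, and 8 without wild-type library 1. Of cholesterol synthesis genes, 9 of 30 tested rose, 1 fell and 20 did not pass (median 0.24). Acly, which supplies acetyl-CoA, had 339, 339.998 and 314 CPM in ShhN IUE and 227, 218 and 196 CPM in wild type (log2 fold change 0.63 ± 0.09, adjusted p = 0.00249). Mvd (0.98), Pmvk (0.97), Dhcr7 (0.75) and the controlling factors Srebf1 (0.73) and Srebf2 (0.48) rose.

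Genes of motile cilia, which ependymal cells of the ventricle carry, rose: 25 of 44 tested rose, 0 fell and 19 did not pass (median 1.32). Foxj1, the factor that directs their formation, had 30.4, 41.4 and 14.8 CPM in ShhN IUE and 3.94, 6.32 and 4.07 CPM in wild type (log2 fold change 2.59 ± 0.38, adjusted p = 0.00242). Here library 3 was the lowest of the ShhN IUE libraries, and still more than 2 times the highest wild-type library. Cfap43, an axonemal protein, had 16.7, 14.1 and 19.03 CPM in ShhN IUE and 3.06, 5.45 and 5.603 CPM in wild type (log2 fold change 1.82 ± 0.26, adjusted p = 0.00231), Cfap44 had 11.6, 10.6 and 12.96 CPM in ShhN IUE and 3.47, 3.77 and 4.999 CPM in wild type (log2 fold change 1.52 ± 0.21, adjusted p = 0.00204) and Rfx2, a ciliary factor, had 5.54, 6.65 and 6.45 CPM in ShhN IUE and 1.87, 2.36 and 1.37 CPM in wild type (log2 fold change 1.72 ± 0.27, adjusted p = 0.00316). The dynein genes Dnaic1 (2.29), Dnaic2 (2.63) and Dnah11 (2.41) and the radial spoke gene Rsph1 (2.73) rose. Without the pair highest in meningeal genes 25 members rose, and without the pair near 0 for Eif2s3y 16 did. Of primary cilium transport genes, 14 of 41 tested rose, 4 fell and 23 did not pass (median 0.32). Ift80, of the anterograde complex, had 27.05, 20.2 and 31.8 CPM in ShhN IUE and 7.73, 8.63 and 9.998 CPM in wild type (log2 fold change 1.58 ± 0.201, adjusted p = 0.00153), and the retrograde genes Ift43 (1.42), Ift122 (0.85), Ift140 (0.73) and Wdr19 (0.901) rose. Ift88 (-0.36), Bbs5 (-0.89), Kifap3 (-0.48) and Ofd1 (-0.52) fell. The rises numbered 8 without ShhN IUE library 1, 9 without wild-type library 2 and 7 without the pair highest in meningeal genes.

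Of interferon response genes, 10 of 30 tested rose, 0 fell and 20 did not pass (median 0.83), and 6 rose with ShhN IUE 3 or wild type 3 left out. Stat2, a transducer of interferon signals, had 55.4, 62.7 and 58.04 CPM in ShhN IUE and 31.3, 32.6 and 30.1 CPM in wild type (log2 fold change 0.91 ± 0.11, adjusted p = 0.00126), and Ifit2, which binds viral RNA, had 20.995, 17.3 and 21.8 CPM in ShhN IUE and 8.298, 11.1 and 9.67 CPM in wild type (log2 fold change 1.05 ± 0.17, adjusted p = 0.00405). H2-K1 had 10.01, 6.23 and 16.3 CPM in ShhN IUE and 4.36, 4.09 and 1.87 CPM in wild type (log2 fold change 1.65 ± 0.42, adjusted p = 0.01997). It is one of several close class I genes, and its call was lost with ShhN IUE 3 or wild type 3 left out. Of microglia genes, 6 of 24 tested rose, 0 fell and 18 did not pass (median 0.71), with 3 rises with ShhN IUE 1 or 3 or wild type 1 or 3 left out, and 10 without wild-type library 2. Aif1, a cytoskeletal gene of microglia, had 7.73, 4.93 and 11.3 CPM in ShhN IUE and 1.35, 1.68 and 1.21 CPM in wild type (log2 fold change 2.49 ± 0.35, adjusted p = 0.00208). The defining genes P2ry12 (-0.21), Tmem119 (0.23) and Cx3cr1 (0.71) did not pass. Sall1 had 83.5, 89.7 and 112 CPM in ShhN IUE and 18.4, 28.5 and 26.4 CPM in wild type (log2 fold change 1.96 ± 0.19, adjusted p = 0.000842). It is expressed in neural progenitors as well as in microglia.

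Of endothelial and mural genes, 8 of 26 tested rose, 1 fell and 17 did not pass, and 2 to 4 rose with ShhN IUE 1 or 3 or wild type 1 or 3 left out. Mfsd2a, a lipid transporter of the blood-brain barrier, had 37.2, 42.8 and 32.6 CPM in ShhN IUE and 22.7, 24.5 and 24.7 CPM in wild type (log2 fold change 0.65 ± 0.13, adjusted p = 0.00832), and Kcnj8, of pericytes, rose (1.198) with a call lost with ShhN IUE 1 or 3 or wild type 1 or 3 left out. The endothelial junction genes Cldn5 (-0.04) and Pecam1 (0.57) did not pass. Summed levels of the list were 768, 626 and 1155 CPM in ShhN IUE and 517, 804 and 564 CPM in wild type. Of the meningeal list 0 of 20 tested rose, 1 fell and 19 did not pass, and 9 fell without ShhN IUE library 3. Dpp4 (-1.37) was the only fall with all libraries. Blood genes gave no call among 6 tested.

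Immediate early genes, which neuronal activity and growth signals induce, moved in both directions: 5 of 24 tested rose, 10 fell and 9 did not pass. The EGR factors fell, with Egr1 at 7.98, 8.66 and 11.2 CPM in ShhN IUE and 25.9, 22.9 and 21.9 CPM in wild type (log2 fold change -1.35 ± 0.17, adjusted p = 0.00161) and Egr3 at 1.07, 1.13 and 0.564 CPM in ShhN IUE and 4.67, 6.54 and 4.01 CPM in wild type (log2 fold change -2.45 ± 0.35, adjusted p = 0.00226), and Egr2 (-2.29), Egr4, Fosb (-2.097), Npas4 (-0.91) and Nr4a1 (-0.96) fell with them. Jun, in contrast, had 89.6, 84.3 and 111 CPM in ShhN IUE and 42.5, 43.4 and 41.5 CPM in wild type (log2 fold change 1.16 ± 0.13, adjusted p = 0.001001), and Btg2, an antiproliferative gene of progenitors that divide for the last time, had 29.3, 26.5 and 36.5 CPM in ShhN IUE and 5.24, 7.54 and 8.46 CPM in wild type (log2 fold change 2.12 ± 0.22, adjusted p = 0.000863). The groups did not overlap for any of these 4 genes with values. Ier3 (1.78), Dusp1 (0.99) and Cyr61 (1.26) completed the rises, and Fos (-0.81) did not pass. Of p53 targets, 4 of 23 tested rose, 4 fell and 15 did not pass, near the shares over all genes. Bbc3 (1.05), Ddit4 (2.19), Gtse1 (1.22) and Btg2 (2.12) rose, Pmaip1 (-1.11), Zmat3 (-0.46), Perp (-1.84) and Plk2 (-0.79) fell, and the classical targets Cdkn1a (0.13) and Mdm2 (-0.29) did not pass. Without ShhN IUE library 1 only 1 fell, and with ShhN IUE 2 or wild type 2 or 3 left out the falls numbered 2.

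Among chromatin and heterochronic regulators, 9 of 29 tested rose, 5 fell and 15 did not pass (median -0.04). Rises made up 31.0% of the list and 16.1% of all genes tested, while falls made up 17.2% of each. Lin28b, an RNA-binding protein of early progenitors, had 4.37, 1.78 and 2.75 CPM in ShhN IUE and 16.5, 15.6 and 15.4 CPM in wild type (log2 fold change -2.41 ± 0.31, adjusted p = 0.00155), with every ShhN IUE library at less than 5 CPM. Smarca4, the BAF complex ATPase, had 644, 687 and 548 CPM in ShhN IUE and 417, 382 and 397 CPM in wild type (log2 fold change 0.65 ± 0.11, adjusted p = 0.00366). Dnmt1 (0.53), Ezh2 (0.65), Hmgb2 (1.05), Hdac1 (0.83) and Igf2bp1 (1.37) rose, while Hmgb1 (-1.08), Nap1l1 (-0.48), Cbx5 (-0.32) and Prdm8 (-0.61) fell. The rises were 5 without the pair highest in meningeal genes, when Hmgb2 lost its call.

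Genes were also ranked by the gap between the closest libraries of the groups, relative to their level. Besides Sp8 and Gsx2, the widest gaps upward belonged to genes outside the lists. Akna, a centrosomal protein of cells that leave the ventricular zone, had 78.7, 69.1 and 85.8 CPM in ShhN IUE and 12.6, 13.4 and 14.1 CPM in wild type (log2 fold change 2.54 ± 0.13, adjusted p = 0.000126). Entpd2, an ecto-ATPase of neural progenitors, had 27.96, 23.1 and 44.1 CPM in ShhN IUE and 4.201, 5.23 and 4.67 CPM in wild type (log2 fold change 2.75 ± 0.26, adjusted p = 0.000737), and Mfng, a glycosyltransferase that modifies Notch receptors, had 38.5, 34.1 and 47.5 CPM in ShhN IUE and 9.08, 7.86 and 7.8004 CPM in wild type (log2 fold change 2.28 ± 0.16, adjusted p = 0.000419). The ShhN IUE libraries differed among themselves by less than 2-fold in each. Sfrp5, a secreted WNT inhibitor, had 5.897, 7.48 and 7.58 CPM in ShhN IUE and 1.297, 1.09 and 0.934 CPM in wild type (log2 fold change 2.65 ± 0.26, adjusted p = 0.000815), and Troap, a spindle protein, had 10.2, 9.67 and 13.4 CPM in ShhN IUE and 1.4003, 2.09 and 2.42 CPM in wild type (log2 fold change 2.49 ± 0.27, adjusted p = 0.000997). Proser3 (2.18), Tpt1 (2.23) and Atp5l (2.63) complete the 10. The last 2 have processed copies in the genome, and how their shared reads were assigned is not given.

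The widest gaps downward, after Tac1 and Zfp503, began with Rasgrp1, a Ras activator of striatal and other neurons, with 2.08, 1.48 and 2.57 CPM in ShhN IUE and 42.99, 27.1 and 22.2 CPM in wild type (log2 fold change -3.91 ± 0.32, adjusted p = 0.000517). Htr2c, a serotonin receptor, had 0.0508, 0.119 and 0.125 CPM in ShhN IUE and 7.52, 6.997 and 3.74 CPM in wild type (log2 fold change -5.89 ± 0.49, adjusted p = 0.000517), so that it was all but undetected in ShhN IUE. Vgf, a secreted neuropeptide precursor that activity induces, had 1.37, 2.55 and 2.44 CPM in ShhN IUE and 23.3, 30.6 and 11.5 CPM in wild type (log2 fold change -3.37 ± 0.41, adjusted p = 0.00134). Nexn (-4.24), an actin-binding protein, Dio2 (-3.395), which activates thyroid hormone, Kctd8 (-2.62), an auxiliary GABA-B subunit, Dbpht2 (-2.73) and Amy1 (-2.84), one of several amylase genes of near-identical sequence, complete the 10.

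**Figure D4:**
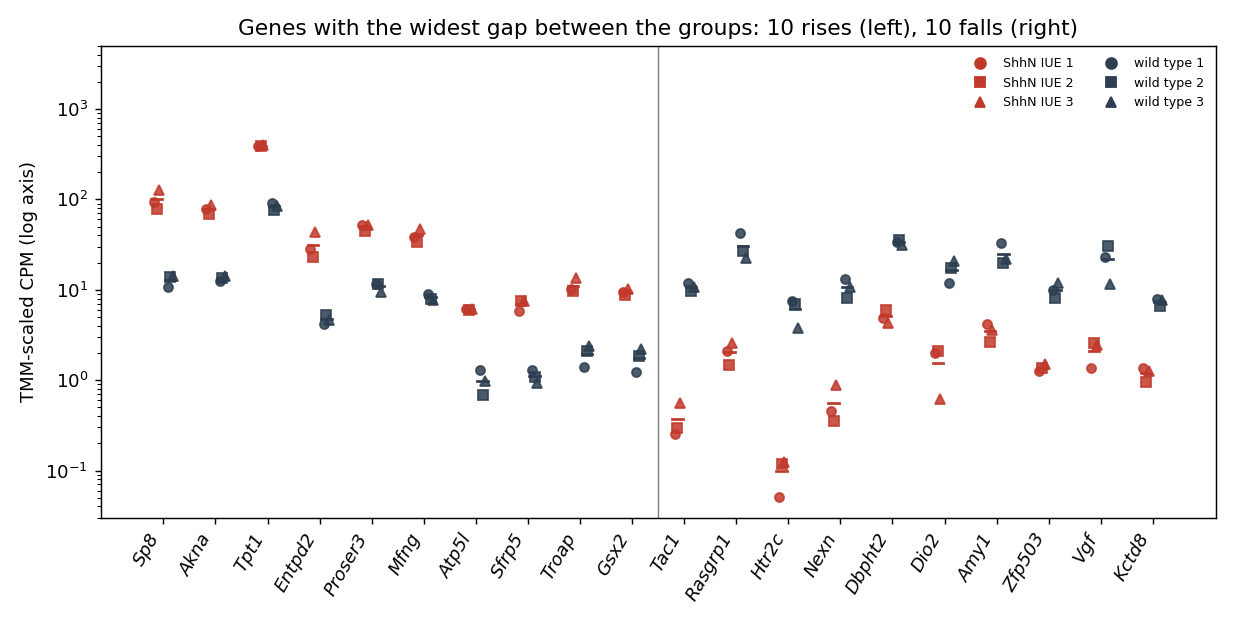
CPM by library (log axis) of the 10 rises (left) and 10 falls (right) with the widest gap between the closest libraries of the groups, with group means as bars. In every gene shown, all 3 ShhN IUE points (red) lie on one side of all 3 wild-type points (dark blue).

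In absolute level, and among genes whose wild-type counts agree between the tables, the largest rises after Tubb2b, Tubb3 and Xist were Eef2, the elongation factor of translation (log2 fold change 0.41 ± 0.11, adjusted p = 0.0221), Ptprs, a receptor phosphatase of axons, with 1503, 1477 and 1442 CPM in ShhN IUE and 1096, 909 and 991 CPM in wild type (log2 fold change 0.56 ± 0.097, adjusted p = 0.00454), and the noncoding RNA Miat (log2 fold change 0.38 ± 0.11, adjusted p = 0.0349). Eef2 and Miat lost their calls with ShhN IUE 1 or wild type 2 or 3 left out, and Miat also without ShhN IUE library 2. Among the same genes the largest falls after Basp1 were Zbtb18, a repressor of pyramidal neurons, with 831, 768 and 597 CPM in ShhN IUE and 1679, 1151 and 1479 CPM in wild type (log2 fold change -0.97 ± 0.17, adjusted p = 0.00474), Adcy1, a calcium-stimulated adenylyl cyclase, with 523, 485 and 434 CPM in ShhN IUE and 1058, 957 and 1093 CPM in wild type (log2 fold change -1.11 ± 0.104, adjusted p = 0.000737), Ddx5 (-0.59), Calm2, calmodulin, with 502, 491 and 470.3 CPM in ShhN IUE and 938, 877 and 889 CPM in wild type (log2 fold change -0.89 ± 0.08, adjusted p = 0.000737), and Sox4 (-0.46). Sox4 lost its call without any library except wild-type 2. For Adcy1 and Calm2 the ShhN IUE libraries stood at about the same level as each other and well below wild type.

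The ShhN IUE libraries were also set against the 3 SmoM2 libraries, an activated SMO in the GFAP-Cre lineage in place of an introduced ligand. These groups also differ in how and when the pathway was reached, and such differences cannot be told apart. The deposited tables count the wild-type libraries differently, so this was done over genes whose wild-type counts agreed between them, in a fit of all 9 libraries in which CPM are relative to those genes and run higher than above. The SmoM2 libraries held 23625702 to 26923127 counts. Of 12349 genes tested, 997 were higher in ShhN IUE (8.07%) and 1043 lower (8.45%). Leaving out single libraries left 351 to 897 higher and 483 to 1026 lower, the fewest without SmoM2 library 2. Without ShhN IUE library 1 the numbers were 383 and 553.

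Hypoxia and glycolysis genes stood apart in this contrast, with 11 of 22 higher in ShhN IUE, 0 lower and a median log2 difference of 0.67, against 0.006 over all genes. Vegfa had 310.1, 158 and 441 CPM in ShhN IUE and 75.5, 76.6 and 76.6 CPM in SmoM2 (log2 difference 1.99 ± 0.29, adjusted p = 0.00233), Adm had 9.86, 6.64 and 16.9 CPM in ShhN IUE and 1.56, 1.29 and 1.45 CPM in SmoM2 (log2 difference 2.95 ± 0.35, adjusted p = 0.000868) and Hk2 had 24.03, 12.7 and 49.3 CPM in ShhN IUE and 6.92, 6.04 and 6.85 CPM in SmoM2 (log2 difference 2.11 ± 0.39, adjusted p = 0.00601). The SmoM2 libraries lay near wild type for these genes, while each ShhN IUE library lay above them. Ldha, which makes lactate, had 627, 383 and 824 CPM in ShhN IUE and 335, 283 and 296 CPM in SmoM2 (log2 difference 1.004 ± 0.24, adjusted p = 0.0175), and Slc2a1 had 143, 80.9 and 234 CPM in ShhN IUE and 65.97, 52.3 and 56.98 CPM in SmoM2 (log2 difference 1.38 ± 0.304, adjusted p = 0.0131). Of motile cilium genes 7 of 35 were higher and 0 lower, among them Foxj1 with 46.8, 63.5 and 22.4 CPM in ShhN IUE and 21.7, 19.5 and 16.6 CPM in SmoM2 (log2 difference 1.2003 ± 0.32, adjusted p = 0.0284). Axon guidance genes were higher in 12 of 41 and lower in 1.

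Of pallial genes 6 of 20 were higher in ShhN IUE and 1, Ldb2, lower. Eomes had 22.7, 51.1 and 14.9 CPM in ShhN IUE and 6.08, 4.76 and 8.83 CPM in SmoM2 (log2 difference 2.17 ± 0.41, adjusted p = 0.00703), and Neurog2 had 22.6, 30.1 and 15.6 CPM in ShhN IUE and 7.702, 6.75 and 10.2 CPM in SmoM2 (log2 difference 1.47 ± 0.26, adjusted p = 0.00497). Both ran highest in ShhN IUE library 2, and no ShhN IUE library came down to the SmoM2 range. The other 4 were Emx1 (0.54), Emx2 (0.72), Cux1 (0.65) and Slc17a6 (0.47). Of SHH reception genes, Gli2 had 31.2, 38.5 and 42.7 CPM in ShhN IUE and 21.7, 17.1 and 22.5 CPM in SmoM2 (log2 difference 0.87 ± 0.17, adjusted p = 0.00713), and Gli3 (0.65), Kif7 (0.77) and Evc2 (0.697) were also higher. Smo, whose counts in SmoM2 mice may include the introduced allele, had 54.5, 63.5 and 74.8 CPM in ShhN IUE and 128, 109 and 122 CPM in SmoM2 (log2 difference -0.895 ± 0.14, adjusted p = 0.00352). Gli1 had 40.1, 42.4 and 104 CPM in ShhN IUE and 71.99, 64.7 and 75.7 CPM in SmoM2 (log2 difference -0.19 ± 0.32, adjusted p = 0.7198) and Ptch1 had 205, 176 and 457 CPM in ShhN IUE and 413, 455 and 445 CPM in SmoM2 (log2 difference -0.65 ± 0.31, adjusted p = 0.173), which did not pass. For Ptch1 only ShhN IUE library 3 reached the SmoM2 range.

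By the rule for named genes, those furthest above SmoM2 that also changed against wild type were Xist, carried by 1 library, Edn1 (3.26), Ccdc67 (3.11), Adm (2.95), Aif1 (2.77) and Hist2h2bb. Edn1, the vasoconstrictor endothelin 1, had 10.1, 2.55 and 20.6 CPM in ShhN IUE and 1.28, 1.48 and 0.697 CPM in SmoM2, with ShhN IUE library 2 the lowest of its group, and its change against wild type was lost without ShhN IUE library 3 or any wild-type library. Ccdc67 is a centriole gene of multiciliated cells. Hist2h2bb, a histone gene with close copies, lost its call without SmoM2 library 2 or 3. Those furthest below were Hfm1 (-2.86), Amy1 (-2.299), Tacr1 (-2.28), Rpl21 (-2.204), Aplnr (-2.06) and Ttbk2 (-1.698). Tacr1, the substance P receptor, had 2.35, 2.91 and 1.33 CPM in ShhN IUE and 9.93, 9.38 and 12.95 CPM in SmoM2, with all SmoM2 libraries at more than 3 times the highest ShhN IUE library. Rpl21 has many processed copies, and its counts are uncertain.

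**Figure D5:**
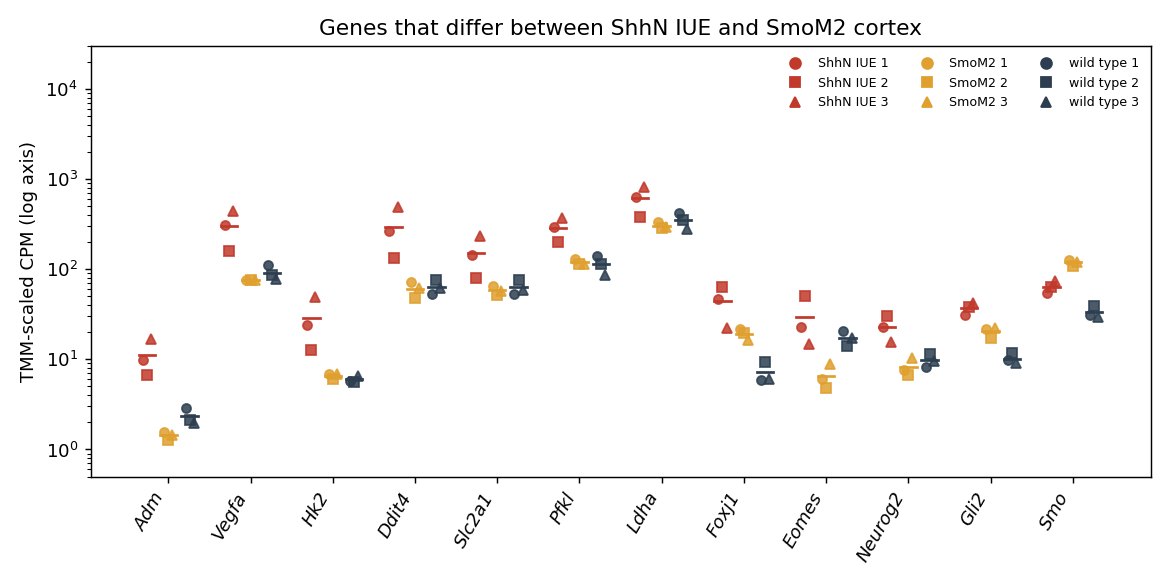
CPM by library (log axis, relative to genes with agreeing wild-type counts) of 12 genes that differ between ShhN IUE (red) and SmoM2 (ochre), with wild type (dark blue) and group means as bars. For Adm, Vegfa, Hk2 and Ddit4 the SmoM2 points lie near wild type and below all ShhN IUE points, and for Smo they lie above.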

How the data were processed

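RNA from cortex at postnatal day 0 was sequenced in bulk, with groups and replicate numbers taken from the sample titles. The authors deposited read counts and FPKM values per gene and library in 2 tables, per the file headers. Per the submitters' processing notes, the builds were GRCm38.p4 and mm10 and the tools HISAT2, StringTie and edgeR, without versions. The use of strand and the treatment of reads that match several gene copies are not given in the sources used here. The FPKM values enter no result. Counts were tested in R 4.3.3 with edgeR 4.0.16 (TMM scaling, default expression filter by group, quasi-likelihood F test, Benjamini-Hochberg threshold 0.05), within the table that holds ShhN IUE and wild type. SE is the log2 fold change divided by the square root of F. Functions were checked on simulated counts. Replicates differed by more than counting noise (chi-square per degree of freedom 19.0 to 34.3), so none is a copy of another library, and each was counted as 1 sample as labelled. Separate preparations of 1 sample would differ in this way too.

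Against SmoM2, all 9 libraries were fitted over genes whose summed wild-type counts, each with 5 added, agreed between tables within 0.1 on the log2 scale (16195 genes, of which 12349 passed the filter), with wild-type counts averaged and rounded. Such agreement held for 11957 of the 16180 genes tested against wild type. Genes given with a fold change alone need not be among them.

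Comparisons, members, gene lists and the naming rule were chosen with earlier results of these data known. Lists are described by counts and medians, with no test of the set. Some genes are members of more than 1 list, so the lists are not separate results. Named genes have agreeing wild-type counts and at least 5 CPM in the higher group. They are the 10 rises and 10 falls with the widest separation, log2 of the lowest CPM of the higher group over the highest of the lower group with 0.5 added to each, the 6 of each with the largest difference in mean CPM, up to 4 members per list with the smallest adjusted p, a fixed set of pathway and cell type genes, and the 6 furthest above and below SmoM2. Other list members given with a fold change alone, and those of small counts, were chosen after their values were seen. Some genes are counted in their lists but not reported here by name. Alternatives were RLE scaling, no filter, DESeq2 1.42.0, limma-voom (limma 3.58.1), a minimum of 1 CPM in 3 libraries, the replicate number as a block, only genes with agreeing wild-type counts, leaving out each library, and, against SmoM2, a tolerance of 0.05 or only the 6 libraries compared.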

Additional observations from a re-analysis of the deposited data

How the results depend on the processing

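Against wild type, rises and falls numbered 2582 and 2777 with RLE scaling, 2463 and 2676 with no filter, 2825 and 2983 with DESeq2, 2628 and 2755 with limma-voom and 2048 and 2098 over genes with agreeing wild-type counts. Leaving out single libraries gave 1567 to 2299 rises and 1684 to 2325 falls. Leaving out the pair highest in meningeal genes gave 1548 and 1710, and leaving out the pair near 0 for Y-linked genes 1545 and 1627. Against SmoM2, leaving out single libraries gave 351 to 897 genes higher and 483 to 1026 lower. Of 160 named genes 149 passed against wild type, and 123 of these passed under every alternative run. Leaving out single libraries lost 7 to 14 of these calls, the meningeal and Y-linked pairs 12 and 19, limma-voom 4, and RLE scaling, both filters and DESeq2 0. Among 72 list counts, 33 changed by more than 1.5 times when some single library was left out. Cdon, at -0.03 with all libraries, ranged from -0.148 to 0.0611 over the leave-outs, at 0.0246, 0.00559, 0.0611 and 0.00232 with ShhN IUE 2, ShhN IUE 3, wild type 1 and wild type 3 left out, and was 0.0557 without the Y-linked pair. The cause was not tested. With the replicate number as a block, 1904 genes rose and 2058 fell, and 697 were higher and 802 lower than in SmoM2. Deviations of same-numbered libraries correlated at 0.271, -0.324 and -0.099, and those of the pair highest in meningeal genes at 0.433. With 3 libraries per group, these values cannot tell whether the numbers pair the samples. The block lost 9 named calls. Depth limits genes near 1 CPM, which rest on about 20 counts per library.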
